A study of Mus musculus with 4 samples.

Results

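S100a8, S100a9, Ngp, Camp, Ltf, Lcn2, Chil3, Cd177 and Mmp8 are 9 genes that neutrophils switch on late in their maturation. They were chosen by name from a table of 27998 genes, and all 9 were present and passed a minimum mean level of 5 UMIs per 1000000 (CPM). The table comes from single-cell RNA sequencing of mouse leukaemia cells driven by the MLL-AF9 fusion, an oncogene of acute myeloid leukaemia. Per the labels, c-Kit+ marrow cells of Hif-1alphaLox/Lox; CreERT2 mice, whose Hif-1alpha can be deleted by giving tamoxifen, were transduced with an MLL-AF9 retrovirus, passed through wild type recipients, and transplanted again. The 4 samples are Hif-1a wt with PBS, Hif-1a KO with PBS, Hif-1a wt with chemotherapy and Hif-1a KO with chemotherapy, 1 sample each, from C57BL6 mice aged 11 weeks. From day 10 after transplantation the mice received 1 mg tamoxifen or vehicle for 5 days, and the labels do not say which sample received which. The treated mice then had 5 days of cytarabine (100 mg/kg) and 3 days of doxorubicin (3 mg/kg), and the others PBS. GFP+ cells, those carrying the retrovirus, were sorted from crushed bone 3 days after the end of treatment. The labels do not give the number of mice behind a sample or of leukaemia clones.

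Barcodes end in a number from 1 to 4, here called the suffix, and no label links these numbers to the samples. Each suffix is therefore described as a sample with no group. No genotype or treatment was compared and no p-value was computed, since there is 1 sample a group and cells of a sample are not replicates. Of 5664 barcodes, 5456 were kept, between 1174 and 1625 in each suffix, with 7644436 to 9932649 UMIs (unique molecular identifiers, each 1 counted transcript end). The median cell had 5315 to 6435 UMIs. Intervals are exact, at 95%, and cover counting error only. Suffixes 3 and 4 also differed from 1 and 2 outside the 9 genes. The summed level of 8 monocyte markers was 703 and 749 CPM in suffixes 1 and 2 against 1745 and 1750 in 3 and 4. That of 7 granulocyte precursor markers was 13609 and 16442 against 6634 and 7092.

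Neutrophils make their granules in sequence: primary (azurophil) granules filled with proteases such as elastase at the promyelocyte stage, then secondary (specific) granules, then gelatinase granules. The proteins of each granule are made largely while that granule forms. S100a8 and S100a9 pair to form calprotectin, a calcium- and metal-binding protein that fills the neutrophil cytosol. Ngp and Camp are relatives that share a cathelin-like domain, and Camp gives rise to the antimicrobial peptide CRAMP. Ltf (lactoferrin) and Lcn2 (lipocalin 2) withhold iron from microbes, Ltf by binding it and Lcn2 by binding bacterial siderophores. Chil3 (Ym1) is a chitinase-like lectin without chitinase activity. Cd177 is a surface glycoprotein of neutrophils, and Mmp8 is the neutrophil collagenase. MLL-AF9 is known to block the maturation of myeloid precursors.

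S100a8 (ENSMUSG00000056054.9, chromosome 3, 90668978 to 90670035) and S100a9 (ENSMUSG00000056071.12, chromosome 3, 90692632 to 90695721) are neighbours in GRCm38, on opposite strands and 22.6 kb apart. Camp, Ngp and Ltf lie in that order on chromosome 9, with 570 kb between Camp and Ngp and 596 kb between Ngp and Ltf. The promoters of 6 members are shown because the members below share cells but differ in order and level. Each runs from 250 bases before the annotated start to 50 after it, from RefSeq on GRCm38.p6, 5′ to 3′ on the gene's strand. Capitals mark letters like the binding site of C/EBP factors, which drive granulocyte genes (TTGCNNAA or its reverse complement TTNNGCAA), and TATA letters (TATAAA or TTTATA).
S100a8: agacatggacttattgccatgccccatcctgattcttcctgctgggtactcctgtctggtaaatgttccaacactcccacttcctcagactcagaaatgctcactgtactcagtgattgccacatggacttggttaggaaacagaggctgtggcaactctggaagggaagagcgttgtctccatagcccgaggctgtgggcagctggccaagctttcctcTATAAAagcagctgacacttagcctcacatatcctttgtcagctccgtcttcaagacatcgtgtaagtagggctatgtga
S100a9: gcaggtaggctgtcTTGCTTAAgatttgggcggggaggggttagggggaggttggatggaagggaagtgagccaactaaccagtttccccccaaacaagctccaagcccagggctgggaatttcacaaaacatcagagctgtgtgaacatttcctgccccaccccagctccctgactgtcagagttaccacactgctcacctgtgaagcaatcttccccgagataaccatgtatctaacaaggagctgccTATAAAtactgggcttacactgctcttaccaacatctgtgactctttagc
Ngp: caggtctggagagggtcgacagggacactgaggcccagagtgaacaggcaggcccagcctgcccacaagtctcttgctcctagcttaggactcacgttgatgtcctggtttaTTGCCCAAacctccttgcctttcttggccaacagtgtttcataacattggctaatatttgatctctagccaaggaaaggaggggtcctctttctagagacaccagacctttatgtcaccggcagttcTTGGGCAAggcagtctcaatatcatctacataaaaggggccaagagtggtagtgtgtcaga
Camp: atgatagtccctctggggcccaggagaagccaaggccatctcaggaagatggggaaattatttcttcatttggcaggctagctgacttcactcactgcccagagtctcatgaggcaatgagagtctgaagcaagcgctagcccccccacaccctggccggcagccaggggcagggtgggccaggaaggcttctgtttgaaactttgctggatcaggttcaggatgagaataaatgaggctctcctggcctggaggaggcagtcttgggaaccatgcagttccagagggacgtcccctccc
Ltf: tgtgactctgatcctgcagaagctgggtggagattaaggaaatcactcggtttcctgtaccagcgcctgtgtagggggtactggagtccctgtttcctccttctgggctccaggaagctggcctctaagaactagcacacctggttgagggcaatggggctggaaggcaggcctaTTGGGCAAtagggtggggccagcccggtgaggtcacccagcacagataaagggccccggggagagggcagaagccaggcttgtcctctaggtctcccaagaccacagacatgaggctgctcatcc
Mmp8: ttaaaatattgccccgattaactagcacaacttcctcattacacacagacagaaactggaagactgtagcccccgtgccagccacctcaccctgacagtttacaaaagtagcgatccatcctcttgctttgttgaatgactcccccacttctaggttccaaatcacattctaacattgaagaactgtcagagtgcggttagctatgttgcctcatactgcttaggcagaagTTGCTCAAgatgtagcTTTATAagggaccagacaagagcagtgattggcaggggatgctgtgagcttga
These windows are chr3:90668821-90669120 (plus strand), chr3:90695672-90695971 (minus), chr9:110419558-110419857 (plus), chr9:109849407-109849706 (minus), chr9:111019042-111019341 (plus) and chr9:7558179-7558478 (plus). The C/EBP-like letters were in 5 of the 9 promoters (S100a9, Ngp, Ltf, Lcn2 and Mmp8, with 2 matches in Ngp), and in 10.8% of 32851 mouse promoters of the same length. TATA letters were in 5 (S100a8, S100a9, Chil3, Cd177 and Mmp8), against 13.6%. Counted from the annotated start, they began at -30 in S100a8, -40 in Cd177, -3 in Chil3 and Mmp8, and 1 in S100a9. Letters like the core of a PU.1 site, GAGGAA or TTCCTC, which are not capitalised here, were in 5 (S100a8, Ltf, Lcn2, Cd177 and Mmp8), against 28.3%. Camp had none of the 3 motifs in this window. The searches covered both strands and the motifs did not overlap each other.

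Levels by suffix come first, in CPM over the kept cells of a suffix. All 9 genes were low in suffixes 1 and 2 and high in 3 and 4. S100a8 stood at 424 CPM in suffix 1, 693 in suffix 2, 6354 in suffix 3 and 2919 in suffix 4, and S100a9 at 196, 432, 4968 and 3258 CPM in the same order. Both calprotectin subunits were thus highest in suffix 3. Ngp stood at 56.4, 75.7, 1904 and 1650 CPM, and Camp at 133, 185, 3069 and 2862 CPM. These 2 related genes kept the same order of suffixes as S100a8 and S100a9, with suffixes 3 and 4 closer to each other.

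Ltf and Lcn2, which both withhold iron, differed in how far apart suffixes 3 and 4 were. Ltf stood at 3.53, 4.32, 114 and 62.9 CPM in suffixes 1 to 4, and Lcn2 at 43.0, 73.1, 537 and 489 CPM. Chil3 had the widest range, at 11.8, 27.4, 1216 and 1789 CPM, and was the only member whose highest suffix was 4. Cd177 stood at 6.93, 6.36, 36.6 and 33.6 CPM and Mmp8 at 1.44, 1.92, 25.3 and 24.6 CPM, the last on 11, 16, 251 and 210 UMIs. The highest suffix exceeded the lowest by 5.76-fold (interval 4.31 to 7.83) for Cd177 and by 152-fold (124 to 189) for Chil3, with the other 7 between. All 9 passed 4-fold, as did 2.12% of the 8244 genes with a mean of at least 5 CPM.

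Suffixes 3 and 4 did not differ by a common factor. S100a8 was 2.18 times as high in suffix 3 as in suffix 4 (interval 2.15 to 2.21), Ltf 1.80 times and S100a9 1.52 times. Ngp, Lcn2 and Camp were within 1.16-fold, with ratios of 1.15, 1.10 and 1.07. For Cd177 (0.933 to 1.28) and Mmp8 (0.853 to 1.24) the interval of the ratio included 1. Chil3 went the other way, at 0.680 of its suffix 4 level (0.663 to 0.696).

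**Figure D1:**
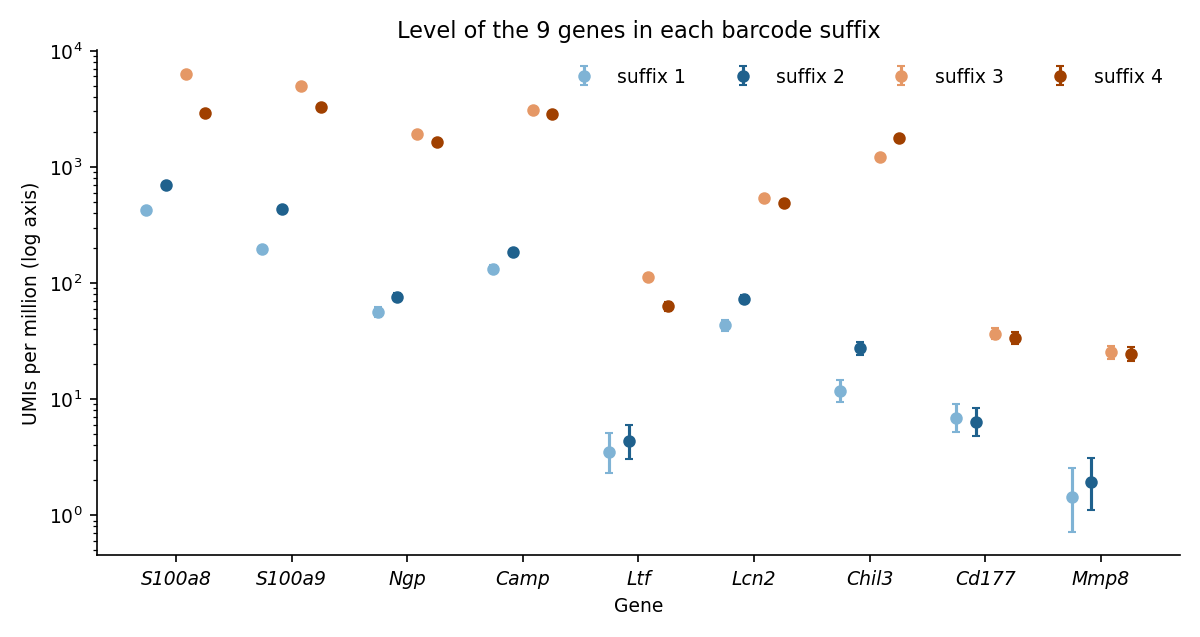
Level of each gene in the kept cells of each barcode suffix, in CPM on a log axis. Points are the summed counts of 1 suffix and bars are exact 95% Poisson intervals, often smaller than the point. Suffixes 3 and 4 lie above 1 and 2 for all 9 genes, and only Chil3 is higher in 4 than in 3.

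The UMIs of the 9 genes sat in few cells. In 185 of 5456 cells (3.39%) the 9 genes made up over 10% of all UMIs, up to 45% of the UMIs of a cell, and these cells, called member-rich below, held 83.1% of all UMIs of the 9 genes. The limit of 10% was chosen after values were seen, with 15 cells between 8% and 10% and 18 between 10% and 12%. Member-rich cells numbered 4 in suffix 1, 6 in suffix 2, 103 in suffix 3 and 72 in suffix 4, which is 0.341%, 0.480%, 6.34% and 5.12% of the cells. Their median depth, 5963 UMIs, was near that of all kept cells, 5782. None of the 185 was a monocyte marker cell, meaning a cell with 10 or more UMIs over the 8 monocyte markers.

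Levels inside member-rich cells are given as a description, since these cells were chosen by the sum of the 9 genes, which fixes the level of the most abundant members. S100a9 stood at 60253, 66226, 69399 and 60070 CPM in the member-rich cells of suffixes 1 to 4, and Camp at 46776, 37547, 41392 and 53080 CPM. S100a8 was at 82632, 66746, 81561 and 49534 CPM, lowest in suffix 4. Chil3 was at 2459, 3730, 13586 and 18122 CPM, Cd177 at 738, 306, 320 and 261 CPM, and Mmp8 had 0 UMIs in suffix 1 and was at 153, 120 and 96.7 CPM in the other 3. The values of suffixes 1 and 2 rest on 4 and 6 cells. Outside member-rich cells the suffixes still differed: S100a8 was at 205, 433, 1083 and 549 CPM and Chil3 at 5.25, 12.8, 349 and 959 CPM.

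For single genes, 50% of the UMIs lay in 14 cells for Ltf, 45 for Mmp8, 50 for Ngp, 57 for Camp, 64 for Lcn2, 67 for S100a9, 73 for S100a8, 79 for Chil3 and 116 for Cd177. For 8 of the 9, all but Cd177, these were at most 2% of cells, which held for 9.13% of the 8244 genes. The median gene needed 330 cells (6.05%). Few UMIs also concentrate a gene by counting alone, which touches Mmp8 with 488 UMIs and Cd177 with 757, and less Ltf with 1729 and S100a8 with 97083. The cell richest in S100a8 held 1128 of its UMIs, 1 cell held 932 of Camp, and the highest Ltf count was 78.

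The cells that held 50% were not the same for all genes. S100a8 and S100a9 shared 60 cells, 82.2% and 89.6% of their sets. Ngp and Camp shared 20, which is 40% of the Ngp set and 35.1% of the Camp set. All 14 Ltf cells were in the sets of Lcn2 and Cd177, and 1 of them was in the set of Camp. Mmp8 shared no cell with Camp and none with Chil3. In all, 230 cells were in at least 1 set, 39 in at least 5, and none in all 9.

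**Figure D2:**
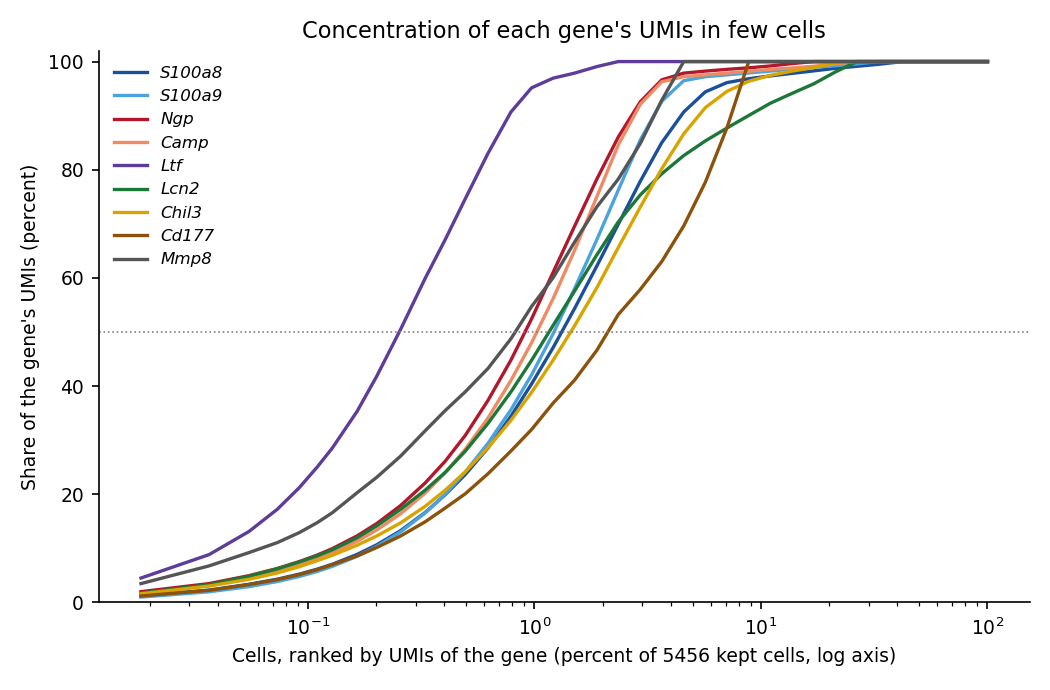
Cumulative share of each gene's UMIs (vertical axis, percent) in cells ranked by their count of that gene (horizontal axis, percent of the 5456 kept cells, log axis). The dotted line marks 50%, which Ltf reaches in 14 cells, Cd177 in 116 and the other 7 genes in 45 to 79. Lcn2 has the longest tail, with 90% of its UMIs in 481 cells against 43 for Ltf.

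Low counts spread wide. The shares that follow are over all kept cells, member-rich cells included. At least 1 UMI of S100a8 was in 15.7%, 20.2%, 76.2% and 44.3% of the cells of suffixes 1 to 4, and at least 3 UMIs in 3.66%, 5.04%, 32.7% and 13.5%. Thinned to 2000 UMIs a cell, the shares with 1 UMI were 7.34%, 10.6%, 49.4% and 24.2%. Mast cell and basophil marker cells (5 or more UMIs over 6 markers), which should lack these transcripts, were used to gauge free RNA. Of the 44 such cells in suffix 3, 54.5% had S100a8 (42.1% thinned), at a median of 3208 UMIs against 5315 in all cells of the suffix. At equal depth the share with 1 UMI in suffix 3 was little above that of these cells, and the counts of shared cells below are at 3 UMIs unless another limit is given. In level, the marker cells of suffix 3 held 238 CPM of S100a8, 3.75% of the suffix mean, 4.52% for S100a9, 2.15% for Ngp and 4.66% for Camp. In the 22 marker cells of suffix 4 the same shares were 2.71%, 2.84%, 2.40% and 2.31%. In suffixes 1 and 2, Lcn2 and Cd177 were not at a like low share. There Lcn2 was at 39.0% and 39.6% of the suffix level in these cells (18 and 13 UMIs). Cd177 was at 53.8% and 35.0% (4 UMIs and 1 UMI), and S100a8 at 5.06% and 5.15%. In suffixes 3 and 4 Lcn2 was as low as the others, at 2.53% and 2.70% (2 UMIs and 1 UMI). Cd177 was at 18.6% on 1 UMI in suffix 3 and had 0 UMIs in suffix 4.

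Monocyte marker cells, 834 in suffix 3 and 720 in suffix 4, differed in how much of each gene they held. They had 4.20% and 3.71% of the suffix level of S100a8, and 3.60% and 2.11% of that of S100a9, close to the 2.71% to 4.52% in mast cell and basophil marker cells. In suffix 2, with 176 monocyte marker cells, S100a8 was at 41.7% of the suffix level, on 396 UMIs. Only 1 of these cells had 3 or more S100a8 UMIs, so this level leans on 1 cell. S100a9 was at 3.89% in the same cells. Lcn2 was at 10.3% and 13.3% in suffixes 3 and 4. Chil3 reached 20.7% and 41.3% of the suffix level in them, Cd177 48.4% and 71.0%, and Mmp8 104% and 130%. Many cells lie near this limit, with 402 at it or 1 UMI above and 543 up to 2 UMIs below. Eosinophil marker cells (5 or more UMIs over 7 markers) numbered 24, 16 of them in suffix 3, where S100a8 was at 99.5% of the suffix level, Ngp at 140% and Camp at 227%. The markers Epx, Ear1, Ear6 and Il5ra had 0 UMIs in all suffixes, so the name of these cells rests on the other 3.

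Co-detection was nested. At 3 UMIs, S100a8 was in 828 cells, Chil3 in 541, S100a9 in 525, Lcn2 in 437, Camp in 340, Ngp in 253, Cd177 in 64, Ltf in 58 and Mmp8 in 52. Of the 58 Ltf cells, all had S100a8, S100a9 and Lcn2 at 3 UMIs, 57 had Ngp, 56 Camp and 53 Chil3. Read the other way, those 58 were among 828 S100a8 cells. Of the 253 Ngp cells, 247 had S100a8 and 220 had Camp, while 120 of the 340 Camp cells lacked Ngp. Cd177 cells resembled Ltf cells, with 82.8% to 87.5% holding each of S100a8, S100a9, Ngp, Camp, Lcn2 and Chil3. Mmp8 stood apart: 26 of its 52 cells had S100a8 and 14 had Ngp. Monocyte marker cells were 217 of the 532 S100a8 cells and 128 of the 349 S100a9 cells of suffix 3. In suffix 4 they were 24 of 190 and 10 of 133. No other member reached 3 UMIs in 199 of the 532 and in 25 of the 190 S100a8 cells. The part of free RNA in these counts was not tested.

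**Figure D3:**
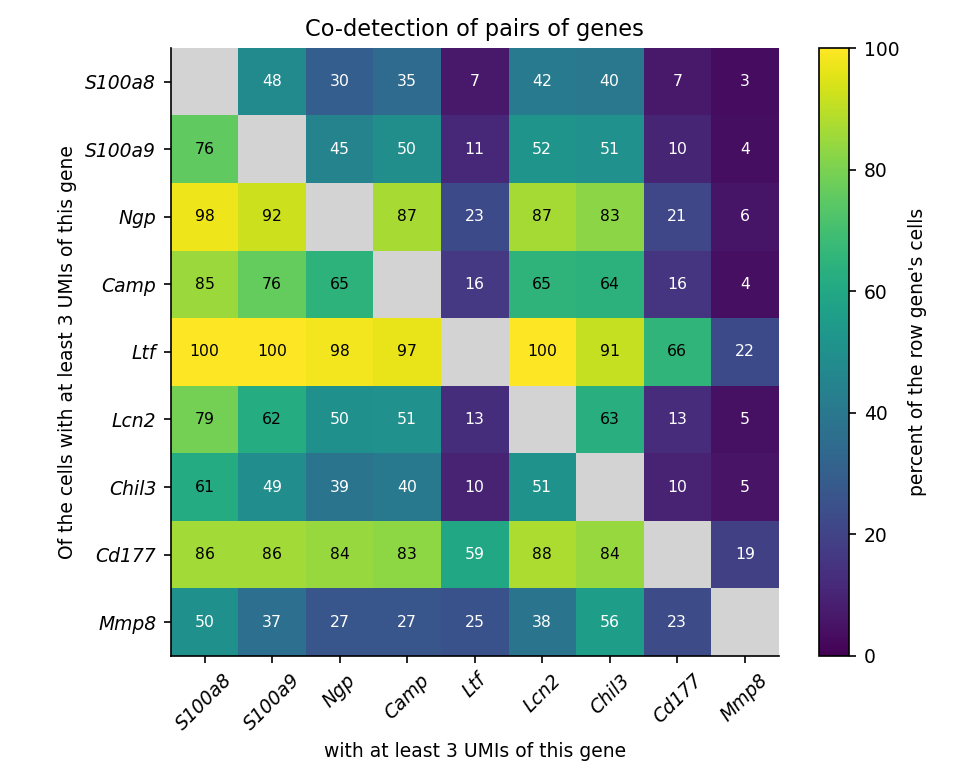
Percent of the cells with at least 3 UMIs of the row gene that also had at least 3 UMIs of the column gene, over all kept cells. The row of Ltf is near 100 for S100a8, S100a9, Ngp, Camp and Lcn2, its column is at most 25 except for Cd177 (59.4), and the row of Mmp8 does not exceed 55.8.

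Cells with at least 5 of the 9 genes at 1 UMI numbered 10, 17, 325 and 158 in suffixes 1 to 4. At 3 UMIs they numbered 5, 10, 127 and 94. Only 10 cells had all 9 genes at 3 UMIs, 5 in suffix 3, 4 in suffix 4 and 1 in suffix 2. Between none and all the distribution had a dip and a second rise: 673 cells had 1 gene, 237 had 2, 95 had 3, 45 had 4, 48 had 5, 117 had 6 and 34 had 7. Of the 117 cells with 6 genes, 59 were in suffix 3 and 54 in suffix 4.

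A pair of genes was called ordered where cells with the first and without the second outnumbered the reverse at least 2-fold in each suffix with 10 or more such cells. At 3 UMIs, 25 of 36 pairs were ordered (17 at 1 UMI). S100a8 came before Camp, Cd177, Ltf, Mmp8, Ngp and S100a9, and nothing came before it, Lcn2 or Chil3. S100a9 came after S100a8 and before Camp and Ngp, and Camp came before Ngp. Ltf, Cd177 and Mmp8 each came after S100a8, S100a9, Ngp, Camp, Lcn2 and Chil3 and were not ordered among themselves. These counts depend on how abundant a transcript is, so a weak gene appears late. They also include cells with S100a8 or S100a9 alone, and the part of free RNA in the order was not tested.

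Levels relative to a gene's own top level take its abundance out of the scale, but not out of the ranking of cells. Cells were ranked by the share of their UMIs that came from the other 8 genes, in 6 bins from up to 0.1% to over 10%, and each gene was set as a percent of its CPM in the last bin. S100a8 was at 1.69% in the second bin (0.1 to 0.3%), 4.65% in the third, 16.1% in the fourth and 38.9% in the fifth. S100a9 was at 0.208%, 0.396%, 4.05% and 28.2% in the same bins, lower than S100a8 in each. Each gene has its own axis here, so cells with S100a8 alone fall in low bins for S100a8 and in higher ones for S100a9. Camp was at 0.231%, 1.70%, 8.44% and 34.2%, and Ngp at 0.172%, 0.318%, 4.58% and 17.6%, later than Camp.

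Lcn2 started earlier and rose more slowly, at 1.56%, 3.79%, 9.01% and 23.1%. Chil3 was already at 4.52%, 17.7%, 29.4% and 48.0%, but the suffixes differed. In the third bin Chil3 was at 7.37% of its last bin in suffix 3 (27 cells) and at 44.6% in suffix 4 (25 cells). Ltf was at 0.186%, 0.0766%, 0.255% and 0.270% before the last bin, the lowest of the genes given here from the third bin on. It had 42 UMIs in 5271 cells outside member-rich cells against 1687 in the 185 within. No cell outside had more than 2 Ltf UMIs. Mmp8 did not follow the axis, at 20.1%, 47.3%, 33.5% and 40.7%, and 74.8% of its UMIs lay outside member-rich cells.

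The order depended on the axis. Where cells were ranked by Ngp and Camp alone, a common axis for the other 7 genes, S100a8 and S100a9 reached 10% of their top level in the same bin (0.1 to 0.3%) and 50% in the same bin (3 to 10%), in suffix 3 and in suffix 4. Ltf reached 10% in the fifth bin in suffix 4, but in suffix 3 it was at 12.2% in the second bin, on 32 UMIs in 13 cells, and at 0 UMIs in the third. On the axis of the other 8 genes, S100a8 reached 10% before S100a9 in suffix 3 (1 to 3% against 3 to 10%) and in the same bin in suffix 4. Cd177, late by pairs, reached 10% on that axis at 0.3 to 1% in suffix 3 and at 0.1 to 0.3% in suffix 4. In both suffixes this was a lower bin than for S100a8, S100a9, Ngp, Camp and Lcn2. Along Ngp and Camp, Cd177 reached 10% at 1 to 3% in suffix 3, later than S100a8, and at 0.1 to 0.3% in suffix 4. Its values rest on 364 and 287 UMIs in suffixes 3 and 4.

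**Figure D4:**
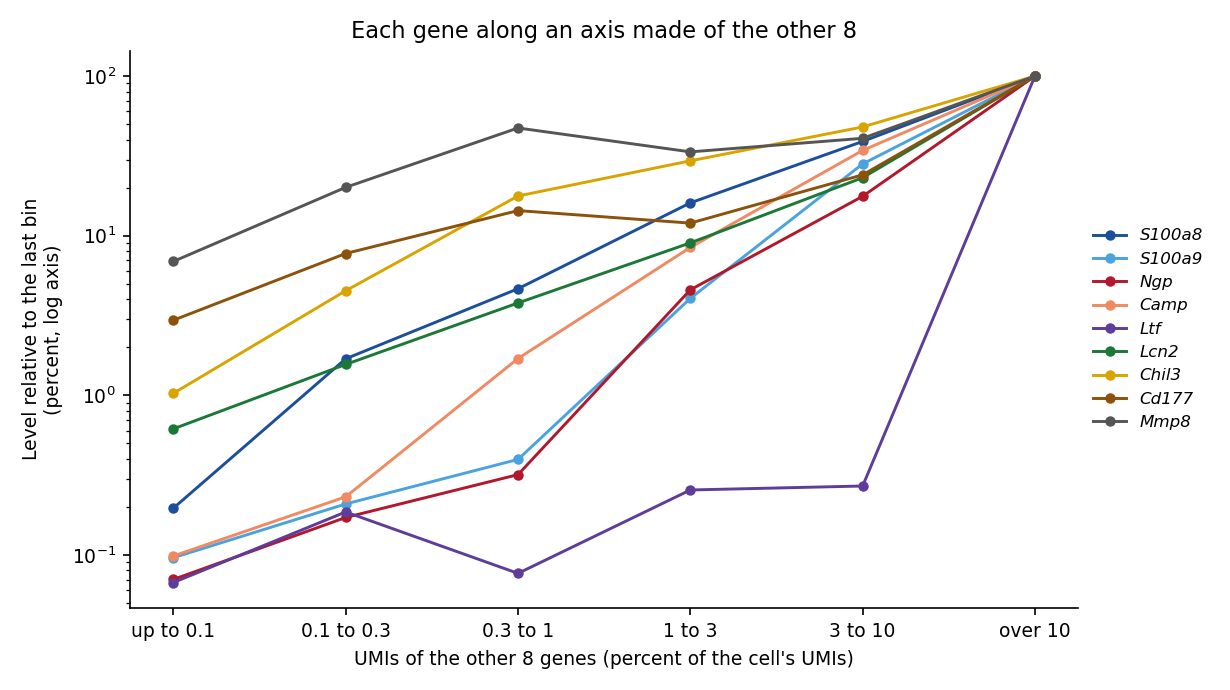
Level of each gene (percent of its CPM in the last bin, log axis) in cells binned by the share of their UMIs that comes from the other 8 genes (horizontal axis). S100a8 lies above S100a9 in bins 2 to 5, Ltf stays under 0.3% until the last bin, and Mmp8 is at 6.90% or more throughout.

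The 2 subunits were also compared cell by cell. Of 423 cells with at least 10 UMIs of the pair, 153 had at least 4 times as many of S100a8 as of S100a9, and none had the reverse. In 51 of them S100a9 was not detected, with a median of 19 and a highest count of 363 S100a8 UMIs, and in none was S100a8 missing. The cell with 363 was in suffix 2, and was the 1 monocyte marker cell there with 3 or more S100a8 UMIs. The cells with 4 times more S100a8 numbered 22 of 30 in suffix 1, 26 of 47 in suffix 2, 61 of 205 in suffix 3 and 44 of 141 in suffix 4. Below 10 UMIs the reverse exists: 42 kept cells had 3 or more S100a9 UMIs and no S100a8, the highest with 7.

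The cells skewed to S100a8 carried more Elane, Mpo, Ctsg and Prtn3, 4 of the 5 primary granule transcripts compared, in all 4 suffixes. Elane, neutrophil elastase, was at 25322 CPM in skewed cells and 14337 in the others of suffix 1, 23029 and 14528 in suffix 2, 8874 and 3628 in suffix 3, and 6745 and 2614 in suffix 4. Mpo, myeloperoxidase, was at 8398 and 1903 CPM in suffix 1 and at 1331 and 335 in suffix 3. The fifth, Ms4a3, was higher in suffixes 1 to 3 but lower in suffix 4, at 297 against 486 CPM. S100a8 itself was lower in the skewed cells of all 4 suffixes, at 9723 against 56708 CPM in suffix 3 and 6600 against 40653 in suffix 4. Whether the other differences go with the skew or with the level of the calprotectin transcripts was not tested. Ngp was also lower in the skewed cells, at 858 against 18088 CPM in suffix 3 and 1986 against 24137 in suffix 4. Cebpe, a factor needed for secondary granules, was at 400 against 436 CPM in suffix 3 and 486 against 646 in suffix 4, a small difference beside the others. This split and the ones by Ltf, Lcn2, Chil3 and Mmp8 below were chosen after values were seen and are descriptions.

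The ratio of the subunits, in UMIs, moved with the share of Ngp and Camp and differed between suffixes. In cells where Ngp and Camp made up to 0.1% of UMIs, S100a9 per S100a8 was 0.447 in suffix 3 (interval 0.427 to 0.468) and 0.520 in suffix 4 (0.486 to 0.556). Where they made over 10%, it was 0.854 (0.830 to 0.879) in 14 cells of suffix 3 and 1.24 (1.21 to 1.28) in 24 cells of suffix 4. At 3 to 10% it was 0.848 in suffix 3 and 1.18 in suffix 4. The bins between did not rise steadily. At 0.1 to 0.3%, 0.3 to 1% and 1 to 3% the ratio was 0.578, 0.459 and 0.727 in suffix 3. In suffix 4 it was 1.11 (6 cells), 1.09 (5 cells) and 1.00 (19 cells), with intervals that include 1. In suffix 3 S100a8 thus stayed the more counted subunit. In suffix 4 S100a9 was the more counted where Ngp and Camp made over 3%, and the subunits were about level from 0.1 to 3%.

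**Figure D5:**
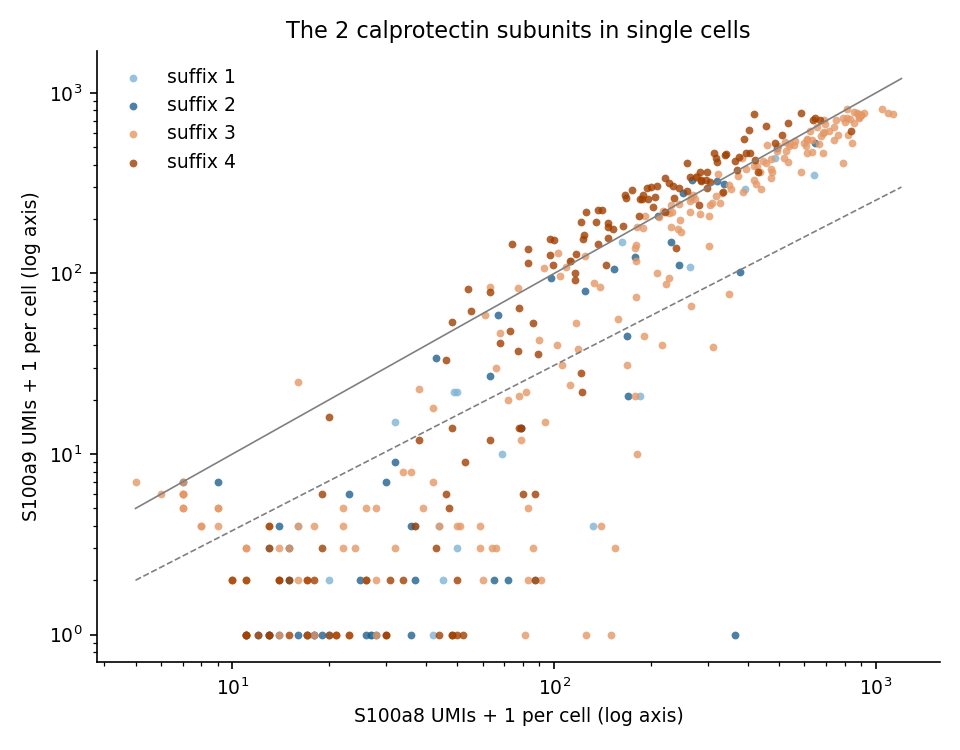
UMIs of S100a8 and S100a9, each plus 1 on a log axis, in the 423 kept cells with at least 10 UMIs of the pair, coloured by barcode suffix. The solid line marks equal counts and the dashed line 4 times more S100a8. 153 cells lie at or under the dashed line and none on the other side at the same ratio.

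Ltf split the member-rich cells in 3: 58 had 3 or more Ltf UMIs, 20 had 1 or 2, and 107 had none. In suffix 3 (34 cells with 3 or more against 60 with none) Lcn2 was at 13805 against 3523 CPM, a ratio of 3.92 (interval 3.67 to 4.18), and in suffix 4 (20 against 43 cells) at 15401 against 4372, a ratio of 3.52 (3.26 to 3.81). Cd177 was at 673 against 160 CPM and at 613 against 131 CPM. Ngp was 2.15 and 2.26 times as high with Ltf, S100a8 1.65 and 2.02 times, and S100a9 1.69 and 2.05 times. Camp and Chil3 were close to level, at ratios of 1.07 and 1.08 and of 1.06 and 1.14. Within member-rich cells, Camp and Chil3 therefore differed by at most 1.14-fold between cells with and without Ltf, and Lcn2 and Cd177 by at least 3.52-fold.

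Other genes moved with Ltf as well. Elane was at 240 against 3918 CPM in suffix 3 and 183 against 2410 in suffix 4. Mmp9, gelatinase B of the gelatinase granules, was at 752 against 126 and 540 against 152 CPM, and Retnlg, a resistin-like protein of mature neutrophils, 6.08 and 8.03 times as high. Stfa2, a stefin that inhibits cathepsins, was at 3988 against 61.7 and 2765 against 76.0 CPM; it has near-identical relatives among which reads may be split. Cebpe was at 491 against 511 and 751 against 616 CPM, with intervals of the ratio that include 1 in both suffixes. Depth was lower in the Ltf cells of suffix 3 (median 5628 against 6765 UMIs) and nearly equal in suffix 4 (4948 against 4981).

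Mmp8 had 2 places. Of the 52 cells with 3 or more Mmp8 UMIs, 16 were member-rich and 13 of these had 3 or more Ltf UMIs. In suffix 3, Mmp8 was at 391 CPM in the Ltf cells of the member-rich set and had 0 UMIs in the 60 cells without Ltf, at least 52.8-fold higher by a floor of 3 counts over those cells. In suffix 4 it was at 220 against 29.5 CPM. The other 36 cells were not member-rich, and in all 33 of the 52 were monocyte marker cells. In 30 of the 36, the other 8 genes made up at most 1% of UMIs. Among cells of that kind, the 13 with Mmp8 in suffix 3 had Lyz2 (lysozyme) at 18277 against 3498 CPM in cells with no Mmp8, Klf4, a monocyte factor, at 217 against 18.1 CPM, and Fn1 (fibronectin) at 153 against 27.6 CPM. The 15 in suffix 4 had Lyz2 at 16408 against 4121, Klf4 at 142 against 19.5 and Fn1 at 244 against 23.0 CPM.

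Chil3 and Lcn2 also appeared in cells where the other 8 genes made up at most 1% of UMIs. Chil3 at 3 or more UMIs was in 289 such cells, 94 of them in suffix 3 and 188 in suffix 4. Compared with cells without Chil3, Lyz2 was at 10255 against 3904 CPM, Fn1 at 86.8 against 35.1 and Klf4 at 52.1 against 21.6 CPM in suffix 3. In suffix 4, Fn1 was at 68.8 against 25.4 CPM and Klf4 at 49.97 against 24.9 CPM. Elane was higher in them too, at 3575 against 2145 CPM in suffix 3 and 4247 against 2301 in suffix 4.

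Lcn2 at 3 or more UMIs was in 157 such cells, and these had Elane at 13066 against 3635 CPM in suffix 1, 12233 against 5237 in suffix 2, 6423 against 1885 in suffix 3 and 5304 against 2285 in suffix 4. Elane was higher with Lcn2 in all 4 suffixes. Lyz2 was higher as well, at 9125 against 3651 CPM in suffix 3 and 11571 against 4061 in suffix 4. Klf4 was lower, at 12.4 against 24.0 CPM in suffix 3 and 8.38 against 27.2 CPM in suffix 4, on 5 and 3 UMIs in the Lcn2 cells. These cells were deeper, with a median of 7180 against 5442 UMIs over all suffixes, and the part of depth was not tested.

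Along the share of UMIs from all 9 genes, Elane first rose and then fell, at 3816, 4607, 8568, 8757, 7848 and 2498 CPM in the 6 bins. Mpo fell earlier, at 1397, 880, 1993, 1801, 860 and 88.6 CPM. Cebpe rose throughout, at 130, 151, 288, 393, 485 and 572 CPM, while Gfi1, a repressor needed for neutrophil formation, was highest in the fifth bin, at 23.5, 24.9, 54.4, 57.8, 91.8 and 55.5 CPM. Mmp9 was at 0.630 CPM in the first bin and 301 in the last. Cd34, a progenitor surface marker, went from 148 to 5.37 CPM. These bins pool the suffixes, and member-rich cells come mostly from suffixes 3 and 4.

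For 7 lists of other genes, levels were compared between cells with at least 5 members at 1 UMI and cells with none, in suffix 3 (325 against 70 cells) and suffix 4 (158 against 178). The cells with none were shallower, with a median of 2885 against 7491 UMIs in suffix 3 and 3945 against 6487 in suffix 4, and detection at 1 UMI in suffix 3 lies little above that in mast cell and basophil marker cells. The results below are therefore given also at 3 UMIs and in thinned cells. A gene was counted where it differed at least 2-fold in both suffixes, which 3.94% of 8244 genes did upward and 5.49% downward; genes that did not are said not to pass. The median log2 difference over those genes was -0.11, or -0.17 with genes at 0 in a class set at their bound. In cells thinned to 2000 UMIs, the log2 difference in summed level went from 1.68 to 0.60 for G2 and M phase genes, from 1.31 to 0.19 for S phase genes, and from 0.55 to 2.30 for gelatinase granule genes. It reversed for the primary granule list, from 1.06 to -0.10. It kept its sign for the other late neutrophil genes (1.74 and 2.96), the stem and progenitor genes (-1.05 and -1.50) and the transcription factors (-0.37 and -0.06).

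Of 16 other late neutrophil genes tested, 9 were higher and none lower (median log2 difference 2.47), and at 3 UMIs 11 were higher and none lower. Gm5483, a stefin-like gene, was at 4061 against 34.8 CPM in suffix 3 and 5037 against 23.7 in suffix 4. Stfa2 was at 323 CPM against 0 UMIs in suffix 3, at least 24.7-fold, and at 305 CPM against 1 UMI in suffix 4. The 3 with the highest levels, Slpi, Lyz2 and Hp, did not pass, at ratios of 1.03, 1.01 and 1.23 in suffix 3 and 0.758, 1.55 and 1.82 in suffix 4.

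Of 8 primary granule genes, 4 were higher and none lower (median log2 1.11), but at 3 UMIs 1 was higher and 1 lower (median log2 -0.30). Elane was at 4351 against 749 CPM in suffix 3 and 3830 against 1221 in suffix 4, and Mpo at 601 against 87.1 and 490 against 152 CPM. Ms4a3, a granulocyte precursor membrane protein, had 0 UMIs in the cells with none in suffix 3, at least 18.3-fold, and was 60.3 times as high in suffix 4 (23.4 to 223). Prtn3 and Ctsg, 2 further proteases, did not pass, at ratios of 1.16 and 2.81 in suffix 3 and 1.08 and 1.21 in suffix 4. Of 8 gelatinase granule and mature neutrophil genes, 3 were higher and none lower (median log2 0.75, or 0.41 at the bound), and at 3 UMIs 5 were higher and 2 lower. Mmp9 was at 88.9 CPM against 0 UMIs in suffix 3, at least 6.81-fold, and at 88.8 against 2.64 CPM in suffix 4. Retnlg was at 157 CPM against 0 UMIs in suffix 3 and at 137 against 1.32 CPM in suffix 4. Csf3r, the G-CSF receptor, and Clec4d did not pass, at ratios of 0.435 and 0.972 in suffix 3 and 1.25 and 0.408 in suffix 4.

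Of 11 granulocyte transcription factors, 3 were higher and 4 lower (median log2 -0.33), and at 3 UMIs 2 were higher and 5 lower. Cebpe was 2.90 and 5.10 times as high in suffixes 3 and 4, and Gfi1 2.36 and 2.99 times, the first with an interval that includes 1 (0.897 to 8.84). Irf8, which favours monocytes over granulocytes, was at ratios of 0.487 and 0.272, and Gata2, a progenitor and mast cell factor, at 0.101 and 0.121. Spi1 (0.726 and 0.866) and Cebpb (0.899 and 1.36) did not pass. Of 9 stem and progenitor genes, none was higher and 1 lower (median log2 -1.01), and at 3 UMIs none was higher and 4 lower. The 1 lower was Flt3, a progenitor receptor, at ratios of 0.253 and 0.129. Cd34 (0.539 and 0.266), Hoxa9 (0.671 and 0.813), Kit and Angpt1 did not pass, and the last 2 rest on 1 UMI in the cells with none of suffix 3.

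Of 12 G2 and M phase genes, 11 were higher (median log2 1.75, or 1.71 at the bound), and of 10 S phase genes 4 (median log2 1.59, or 1.37 at the bound). Top2a was 3.24 and 2.50 times as high, Birc5 3.96 and 2.86 times, and Rrm2 6.25 and 2.45 times. Mki67 was at least 5.04-fold higher in suffix 3 and 2.77 times as high in suffix 4; Rad51ap1 was at least 3.01-fold higher and 2.44 times as high. Hmmr, with 0 UMIs in the cells with none of suffix 3, was at least 1.80-fold higher there and 2.27 times as high in suffix 4, so its call in suffix 3 rests on the added 1 CPM. Cenpa (1.73 and 1.44), Slbp (1.57 and 1.26), Mcm6 (2.89 and 1.95) and Pcna (10.1 and 1.90) did not pass. With members counted at 3 UMIs instead, 1 of the 12 G2 and M phase genes and none of the 10 S phase genes were higher. The cell cycle and primary granule counts thus depend on the detection limit and on depth.

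The genes most like the 9 in pattern were found by Pearson correlation, across the cells of a suffix, between log UMIs per 10000 of a gene and of the summed members, taken as the median of 4 suffixes. The cells share library and depth, and the values are descriptions. Among the 15 highest were 4 stefin genes of a cluster with near-identical copies: Stfa1 (r = 0.67), BC100530 (0.65), Gm5483 (0.65) and Stfa2l1 (0.52). Fcnb, a ficolin of the lectin complement pathway, had r = 0.62, Wfdc21 0.55, the kinase gene Mapk13 0.55, Pglyrp1, a peptidoglycan-binding granule protein, 0.54 and Lrg1 0.53. Clec4a2 (0.51), Mogat2 (0.46), Ms4a3 (0.42), Itgb2l (0.41), Mcemp1 (0.41) and G0s2 (0.40) followed. Against the other 8 members, S100a8 itself had r = 0.73, S100a9 0.70, Ngp 0.64, Camp 0.62, Lcn2 0.61, Chil3 0.60, Ltf 0.40, Cd177 0.35 and Mmp8 0.13. In suffix 1, where Mmp8 had 11 UMIs, its r was -0.02.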

How the data were processed

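Single cells were profiled with the 10x Chromium 3' V2 kit, per the labels' protocols. Per the submitters' processing notes, the authors used Cell Ranger 1.3 with mm10. No source used here names the gene annotation. The values used are the deposited raw UMI counts per gene and barcode, with no normalization. A 3' count is taken once per transcript and was not divided by length.

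Barcodes needed 500 UMIs or more and a mitochondrial share of 10% or less; no doublets were called or removed. Of barcode sequences, 17 occurred under more than 1 suffix (32 kept cells). Counts were summed by suffix or class and divided by total UMIs (CPM). At the 95% level, shares have exact binomial intervals, CPM values exact Poisson ones, and ratios those of the exact conditional binomial. The floor for a count of 0 is 3 counts. Thinning drew 2000 UMIs a cell, leaving out 114 shallower cells. List ratios used CPM + 1. Python 3.11.15, numpy 2.4.6 and scipy 1.17.1 were used; edgeR 4.0.16 and DESeq2 1.42.0 gave alternative scaling factors. The functions were tested on simulated data. The members, lists and markers were chosen with earlier results of these data known. Apart from the 9 genes, named genes are the 15 most alike, per list the 3 most abundant by mean CPM and then 2 more by size of log2 ratio, and Cebpe, Gfi1, Elane, Mpo and Mmp9; 1 gene that this rule takes is not reported here, and further genes named beside a split were chosen after values were seen. Of the listed genes, 1 transcription factor and 1 T and NK cell marker were not analysed here. Marker cell limits (5 or 10 UMIs), bins and splits were set after values were seen. Alternatives changed the cell filter, detection limit, depth, scaling and the suffixes used.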

Additional observations from a re-analysis of the deposited data

Results flagged for a closer look

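The 208 barcodes removed for over 10% mitochondrial UMIs take part in no comparison, and 8 of the 9 genes had more than 3 UMIs in them. S100a8 was at 149 CPM in these barcodes (61 UMIs), S100a9 at 65.8, Ngp at 24.4, Camp at 43.9, Lcn2 at 80.4, Chil3 at 43.9, Cd177 at 19.5 and Mmp8 at 12.2 CPM. Ltf had 1 UMI. S100a8 was detected in 21.2% of the removed barcodes and Ngp in 4.81%. Whether these UMIs come from the barcodes' own cells or from free RNA was not tested.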

How the results depend on the processing

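The 9 genes passed a 4-fold range between suffixes under each cell filter, each of the 3 scalings (edgeR's TMM, DESeq2's median of ratios, totals without the 9 genes) and without any 1 suffix. Among all genes with a UMI instead of those at 5 CPM, 4.01% passed. Levels by suffix moved by at most 1.07-fold under any setting run. Cells with at least 5 members, 510 at 1 UMI, numbered 249 in cells thinned to 2000 UMIs, 236 at 3 UMIs and 185 without suffix 3. Cells with 50% of the summed UMIs, 76 in all, were 37 without suffix 3 and 47 without suffix 4. Member-rich cells, 185 in all, were 82 without suffix 3 and 113 without suffix 4. Cells with 4 times more S100a8, 153 in all, were 92 without suffix 3. These 2 counts and their alternatives were chosen after seeing the data. Fewer cells are used without a suffix. Ordered pairs ranged from 15 to 25, and 10 to 15 of the genes most alike were shared with the main 15. Of the 7 lists, 5 differed at least 2-fold in summed level; 3 did when thinned, at 3 UMIs and without suffix 3, and 2 against cells with at most 2 members. The primary granule list reversed when thinned, from a log2 difference of 1.06 to -0.10; the cause was not tested. No paired analysis was possible because there is 1 sample a group and the columns carry no sample.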
